A study of Mus musculus with 26 samples.

Results

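The imprinted Dlk1-Meg3 locus of mouse chromosome 12 and 5 imprinted genes from other chromosomes were followed through the differentiation of C2C12 myoblasts with lowered or raised SMYD3, a lysine methyltransferase. The 9 genes were chosen by name, out of 55341 genes in the deposited count files, as imprinted genes known from muscle precursors. Dlk1, Meg3, Rian and Mirg lie on the locus itself, and Mest, Peg3, Plagl1, Grb10 and Gnas lie elsewhere. For the locus, almost no counts stood behind the description as genes of muscle precursors: Dlk1, Meg3 and Rian had 0 counts in each of the 26 libraries, and Mirg had 9 counts in all. The other 5 genes were transcribed. In cells given a control siRNA, 3 of them, Mest, Peg3 and Grb10, rose within 24 h of differentiation. There 29.4% of all tested genes changed in either direction at an adjusted p under 0.01 (edgeR).

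C2C12 myoblasts, an established mouse line, stop dividing and fuse into myotubes once confluent cultures are moved to differentiation medium. RNA-Seq was performed at confluence (0 h) and after 24 h in differentiation medium. In the knockdown experiment, C2C12 cells received a control siRNA (siCtrl) or 1 of 2 siRNAs against Smyd3 (siSMYD3#1 and siSMYD3#2), with a first transfection of growing cells and another one 24 h later at the switch to differentiation medium, and with 3 libraries per siRNA and time, 18 in all. In the overexpression experiment, cells carrying the empty retroviral vector (pREV) were compared with SMYD3 CL5, cells carrying the same vector with HA-FLAG-tagged SMYD3 (pREV-SMYD3), with 2 libraries per line and time, 8 in all. SMYD3 CL5 is 1 clone, and the paper states that cells with the control vector were sub-cloned as well. The effect of SMYD3 and the history of either line therefore cannot be told apart in any comparison that holds SMYD3 CL5. All groups are of the same C2C12 line, and the labels name no deletion in any group. In every siRNA group, RNA of 1 library was extracted with TRIzol and RNA of the other 2 with the NucleoSpin kit, and the study's library list gives the TRIzol cells another passage, so extraction and passage cannot be told apart. All 8 overexpression libraries were extracted with TRIzol. The paper describes 2 to 3 biological replicates. The labels do not say whether libraries of a group came from separate cultures, so p-values measure the spread between these libraries.

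Imprinted genes are transcribed from 1 parental copy, and which copy it is depends on DNA methylation laid down in the germ line. On the Dlk1-Dio3 domain, the paternal chromosome expresses the protein-coding genes Dlk1, a transmembrane relative of Notch ligands, Rtl1 and Dio3, while the maternal chromosome expresses a chain of non-coding RNAs: Meg3, the snoRNA host Rian and the microRNA host Mirg. Of the genes elsewhere, Mest encodes a hydrolase-like membrane protein, Peg3 a large zinc finger protein, and Plagl1 a zinc finger transcription factor that acts on other imprinted genes. All 3 are paternally expressed. Grb10 encodes an adaptor that dampens insulin and IGF receptor signalling and is maternally expressed in most tissues. Gnas encodes the stimulatory G protein alpha subunit and, from other promoters of the same locus, further imprinted transcripts. Imprinted genes as a group are known for roles in growth, and several are used as marks of muscle stem and precursor cells.

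The microRNAs hosted by the domain are shown because they derive from its host transcripts. RefSeq places 113 mature microRNAs from 61 genes in the domain, with 104 different seeds, the bases 2 to 8 that pair with targets. Only 9 seeds were shared by a pair of them, together 18 microRNAs. Sequences are given 5′ to 3′ with the seed in capitals. The first pair shares GGUAGAC, the second pair shares AUGUAAC, and the last 3 are well-known products of the region upstream of Rian or of Mirg.
miR-379-5p: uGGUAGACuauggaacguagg
miR-1193-5p: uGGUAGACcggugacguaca
miR-379-3p: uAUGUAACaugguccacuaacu
miR-411-3p: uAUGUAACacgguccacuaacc
miR-127-3p: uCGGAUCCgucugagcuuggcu
miR-433-3p: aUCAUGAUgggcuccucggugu
miR-134-5p: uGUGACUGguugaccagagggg
The gene of miR-127 starts the mature 3p form at chr12:109592888-109592909 and that of miR-134 its 5p form at chr12:109734145-109734166, both on the plus strand of GRCm38. The libraries were made from polyA RNA, so counts on these rows concern host transcripts and not the mature microRNAs.

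Promoter windows of 300 bases, each spanning a RefSeq transcription start on GRCm38.p6, are shown for 2 genes that had no counts (Dlk1 and Meg3) and for the 3 that rose in siCtrl. Capitals mark CANNTG (the E-box bound by MyoD-type factors) and CCCTCC or GAGGGG, which the study names as SMYD3 motifs. Both strands were searched, and the last 2 motifs can overlap, since CCCCTCC holds CCCTCC and the reverse complement of GAGGGG.
Dlk1, chr12:109452573-109452872, plus strand: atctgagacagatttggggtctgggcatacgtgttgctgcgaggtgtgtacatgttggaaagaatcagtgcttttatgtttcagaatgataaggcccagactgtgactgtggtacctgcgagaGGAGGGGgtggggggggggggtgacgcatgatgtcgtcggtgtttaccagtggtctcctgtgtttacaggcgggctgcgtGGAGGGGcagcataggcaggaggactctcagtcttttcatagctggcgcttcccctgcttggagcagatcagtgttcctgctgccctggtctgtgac
Meg3, chr12:109540746-109541045, plus strand: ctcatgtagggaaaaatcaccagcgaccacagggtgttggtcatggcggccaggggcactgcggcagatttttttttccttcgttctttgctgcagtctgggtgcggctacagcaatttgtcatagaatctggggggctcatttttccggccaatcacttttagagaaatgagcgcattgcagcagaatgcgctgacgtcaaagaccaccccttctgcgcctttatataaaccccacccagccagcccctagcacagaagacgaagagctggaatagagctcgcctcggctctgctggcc
Mest, chr6:30737800-30738099, plus strand: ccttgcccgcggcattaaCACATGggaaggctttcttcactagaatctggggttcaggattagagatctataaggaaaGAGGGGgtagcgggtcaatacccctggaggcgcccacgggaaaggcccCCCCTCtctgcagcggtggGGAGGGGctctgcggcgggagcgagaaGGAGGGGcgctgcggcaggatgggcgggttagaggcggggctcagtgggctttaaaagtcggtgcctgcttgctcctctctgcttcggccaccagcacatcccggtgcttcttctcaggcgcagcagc
Peg3, chr7:6730370-6730669, minus strand: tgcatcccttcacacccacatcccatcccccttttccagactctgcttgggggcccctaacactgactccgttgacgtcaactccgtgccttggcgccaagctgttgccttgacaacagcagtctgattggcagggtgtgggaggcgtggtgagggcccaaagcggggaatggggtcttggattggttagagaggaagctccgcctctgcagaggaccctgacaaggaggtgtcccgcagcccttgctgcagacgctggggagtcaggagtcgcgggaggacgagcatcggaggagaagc
Grb10, chr11:12037371-12037670, minus strand: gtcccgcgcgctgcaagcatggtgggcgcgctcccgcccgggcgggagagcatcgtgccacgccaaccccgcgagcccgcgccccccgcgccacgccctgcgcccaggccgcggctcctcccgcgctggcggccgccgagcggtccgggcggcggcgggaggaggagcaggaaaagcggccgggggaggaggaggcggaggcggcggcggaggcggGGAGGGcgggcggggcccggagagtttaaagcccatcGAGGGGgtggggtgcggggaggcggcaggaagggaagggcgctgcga
The Dlk1 window, of a gene with no counts, held 2 matches each to CCCTCC and GAGGGG, and the Peg3 window, of the most abundant member, held none. The Mest window held 1 E-box, 2 matches to CCCTCC and 4 to GAGGGG. Of the 16 windows listed for the 9 genes, 11 held an E-box, 8 held CCCTCC, 10 held GAGGGG and 0 held the MEF2 motif. Over all 32851 mouse promoter windows of this length the shares were 72.3% for the E-box, 39.2% for CCCTCC, 32.9% for GAGGGG and 3.19% for the MEF2 motif.

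Dlk1, Meg3 and Rian were not detected in any library, and Mirg was barely above the limit of detection over all libraries together. Counts here are read counts per gene, and 3 counts were taken as the limit that a count of 0 allows, for counting error only. Dlk1 (ENSMUSG00000040856, chr12:109452823-109463336, plus strand), Meg3 (ENSMUSG00000021268, chr12:109541001-109571726, plus strand) and Rian (ENSMUSG00000097451, chr12:109603940-109661716, plus strand) were at 0 in all 26 libraries. In a single library this allows a level of up to 0.0442 to 0.21 CPM, counts scaled to a common library size, and over the 820928315 counts of all libraries up to 0.00365 CPM. Mirg (ENSMUSG00000097391, chr12:109729764-109749460, plus strand) had 1 or 2 counts in 7 libraries and 0 in the other 19: 1 siCtrl, 1 siSMYD3#1 and 0 siSMYD3#2 counts at 0 h, 0, 2 and 1 at 24 h, 2 in the vector cells at each time and 0 in SMYD3 CL5. No single library passes the limit of 3 counts, while the 9 counts of all libraries together do. The exon bases that overlap no other gene were 5657 for Dlk1 (100.0%), 16590 of 18089 for Meg3 (91.7%), 17611 of 18234 for Rian (96.6%) and 6925 of 7292 for Mirg (95.0%). No fold change or test can be given for these 4 genes at this depth, and no gene can be named as most like Meg3 or Dlk1 in pattern.

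Most genes of the imprinted domain had no counts either. Between the start of Dlk1 and the end of Dio3, 828.3 kb, GENCODE lists 118 genes, of which 110 had 0 counts in all 26 libraries. These included all 3 protein-coding genes (Dlk1, Rtl1, the retrotransposon-derived gene, and Dio3, the enzyme that inactivates thyroid hormone), all 67 microRNA genes and all 23 snoRNA genes. Only 3 genes of the domain exceeded 3 counts in a library: the processed pseudogene Gm3379 (1341 counts in all), the lincRNA Gm34719 (344) and Gm47188 (32). Gm3379 and Gm34719 were kept in both fits and neither passed the threshold in any of the 16 comparisons. A pseudogene can share reads with its parent gene, so the count of Gm3379 is uncertain.

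**Figure D1:**
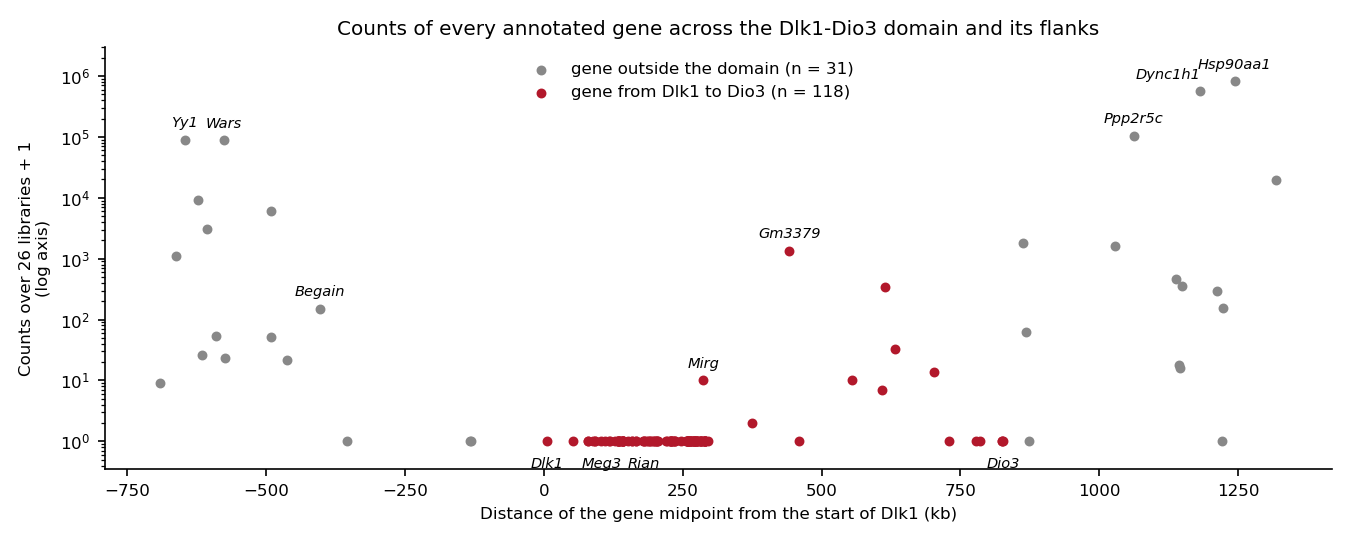
Total counts over the 26 libraries for each annotated gene around the Dlk1-Dio3 domain (vertical axis, counts plus 1 on a log scale) against distance from the start of Dlk1 in kb (horizontal axis), with genes inside and outside the domain in different colours. The genes from Dlk1 to Mirg sit at or near the bottom line, with Mirg at 9 counts, while Yy1, Wars, Ppp2r5c, Dync1h1 and Hsp90aa1 outside the domain sit near or above 88253 counts.

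Most genes of the domain without counts lay side by side. From Mif-ps7 to Gm9661 (chr12:109098227-109828124, 729.9 kb), 108 genes in a row had at most 3 counts in each library, and the neighbours on either side were Begain (1 to 15 counts, median 4) and Gm3379. The run included Mirg and 2 protein-coding genes, while Dio3, also at 0 counts, lay beyond Gm3379. Of 8919 such runs in the genome, 8 held at least as many genes and 415 were at least as long, this run counted in both. Counts were high at several genes farther out: before the domain, Yy1 ranged from 67.1 to 133 CPM, Wars from 56.7 to 227 CPM and Wdr25 from 5.78 to 9.89 CPM, and after it, Ppp2r5c ranged from 108 to 171 CPM, Dync1h1 from 431 to 1149 CPM and Hsp90aa1 from 497 to 1821 CPM. As a background, 17.7% of all protein-coding genes, 49.9% of lincRNA genes, 70.6% of microRNA genes and 77.1% of snoRNA genes in the files had 0 counts in all libraries. The cause of the zeros, in the cells or in how the reads were assigned, was not tested.

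Depth lay between 14315193 and 60398170 counts for siRNA libraries and between 21124675 and 67853386 counts for overexpression libraries. Muscle markers (Myod1, Myf5, Des, Cdh15) were all present, at a summed 218 to 1610 CPM at 0 h, and markers of differentiating muscle (Myog, Myh3, Ckm, Acta1, Tnnt3) summed to 2.31 to 427 CPM at 0 h and 25.6 to 1280 CPM at 24 h. Summed markers of endothelial cells reached at most 2.65 CPM, of leukocytes 6.77, of epithelium 6.78, of neural cells 0.0691 and of adipocytes 28.4. The labels were checked on Smyd3 itself, in CPM with library sizes scaled by the TMM method, as for all levels below. Smyd3 averaged 21.2 ± 0.86 CPM (SD, n = 3) in siCtrl at 0 h. It lay between 17.4 and 20.1 CPM in the 3 siSMYD3#1 libraries, below the siCtrl libraries (20.3 to 22.1 CPM), and averaged 7.91 ± 1.51 with siSMYD3#2. At 24 h the means of siCtrl, siSMYD3#1 and siSMYD3#2 were 19.9 ± 1.55, 16.9 ± 2.38 and 6.97 ± 2.54 CPM. The fall passed the test for siSMYD3#2 at both times (adjusted p = 0.000107 and 5.06e-05) and not for siSMYD3#1 (0.785 and 0.414), so a lower Smyd3 transcript in the libraries labelled siSMYD3#1 was not established. In SMYD3 CL5, Smyd3 measured 21.1 ± 7.11 CPM at 0 h and 21.5 ± 2.12 at 24 h (n = 2), against 16.3 ± 1.84 and 16.5 ± 0.93 in vector cells (adjusted p = 0.593 and 0.671), and whether reads of the tagged transgene fall on this gene was not tested.

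Of the 5 genes with counts, Peg3 was the most abundant on average. Per kb of exon, the siRNA libraries averaged 28.1 CPM for Peg3, 10.9 for Mest, 3.27 for Gnas, 0.28 for Grb10 and 0.0614 for Plagl1. The overexpression libraries averaged 33.4, 1.32, 2.37, 0.16 and 0.0912 CPM per kb in the same gene order, so that Mest lay below Gnas there. Over single siRNA libraries Mest ranged from 1.28 to 28.2 CPM per kb, overlapping the range of Gnas (2.24 to 4.67), so these neighbours in the order are not separated in every library. Peg3 (17.7 to 64.4) overlapped Mest as well, and Grb10 (0.113 to 0.578) overlapped Plagl1 (0.00883 to 0.16). Both statistical fits kept these 5 genes and left out the 4 genes of the locus.

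**Figure D2:**
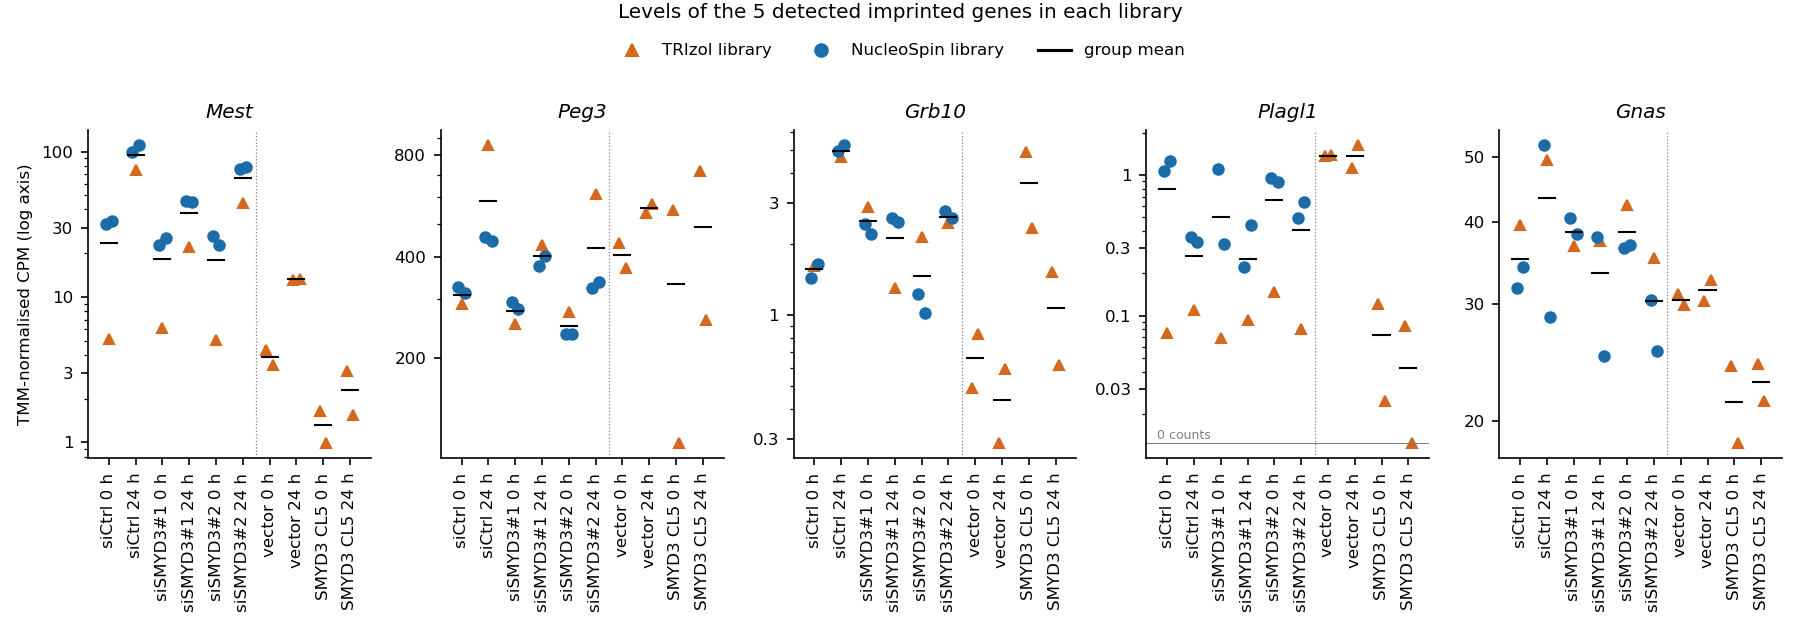
Level of Mest, Peg3, Grb10, Plagl1 and Gnas in each library (1 point per library, log axis in TMM-scaled CPM), by treatment and time, with TRIzol and NucleoSpin libraries marked and a bar at each group mean. Mest in siCtrl climbs from 5.18 to 33.5 CPM at 0 h to 75.0 to 111 CPM at 24 h, within each siRNA group the TRIzol library lies lowest for Mest and Plagl1, and Plagl1 in SMYD3 CL5 lies at or below 0.12 CPM.

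Mest (ENSMUSG00000051855, chr6:30723547-30748465, plus strand) rose with differentiation in siCtrl, by more than Grb10 in the fit of all 18 libraries and by about as much in NucleoSpin libraries alone (log2 fold change 1.70 against 1.72). In siCtrl at 0 h it measured 5.18 CPM in the TRIzol library and 31.7 and 33.5 CPM in the NucleoSpin libraries. At 24 h the values were 75.0, 99.8 and 111 CPM in the same order, so the groups did not overlap. The log2 fold change was 2.34 (SE 0.36, adjusted p = 0.000156, edgeR quasi-likelihood test with Benjamini-Hochberg adjustment over 15820 genes, threshold 0.01). In this comparison 29.4% of all genes passed the threshold. With siSMYD3#2, Mest went from 5.05, 26.4 and 22.8 CPM to 44.3, 75.9 and 78.4 CPM (TRIzol first), a log2 fold change of 2.08 (SE 0.36, adjusted p = 0.000792), in a comparison where 19% of all genes passed. With siSMYD3#1 the values were 6.08, 22.9 and 25.6 CPM at 0 h and 22.0, 46.0 and 44.9 CPM at 24 h. The groups overlapped, and the log2 fold change of 1.20 (SE 0.35) did not pass (adjusted p = 0.017), where 25.4% of all genes did.

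At 24 h, Mest was lower in every siSMYD3#1 library (22.0 to 46.0 CPM) than in every siCtrl library (75.0 to 111 CPM). The log2 fold change of -1.45 (SE 0.34) missed the threshold (adjusted p = 0.0146), and 5.85% of all genes passed. For siSMYD3#2 at 24 h (44.3 to 78.4 CPM) it was -0.59 (SE 0.34, adjusted p = 0.339), and 3.7% of all genes passed. The rise of Mest differed between siSMYD3#1 and siCtrl by -1.14 on the log2 scale (SE 0.49, adjusted p = 0.526), where 0.215% of all genes passed, and between siSMYD3#2 and siCtrl by -0.25 (SE 0.48, adjusted p = 0.922), where 0.019% passed. The siRNA comparisons share the siCtrl libraries.

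Extraction moved with the level of Mest. The TRIzol library was below both NucleoSpin libraries in all 6 siRNA groups, and the term for TRIzol was -1.38 on the log2 scale (SE 0.23, adjusted p = 0.000153), with 51.3% of all genes passing for that term. The ratio of 24 h to 0 h was 14.5 in TRIzol and 3.24 in NucleoSpin libraries for siCtrl, 3.62 and 1.87 for siSMYD3#1, and 8.77 and 3.13 for siSMYD3#2. The size of the rise also differed by extraction, with a term of 1.50 (SE 0.15, adjusted p = 8.62e-07) for which 10.3% of all genes passed. Myog, the transcription factor that marks the start of differentiation, had ratios of 305 and 160 for siCtrl. It went from 0.188 CPM (5 counts, near the limit) to 57.2 CPM in TRIzol and from 1.55 to 247 CPM in NucleoSpin libraries. Whether a difference in stage, the passage or the extraction sets these levels was not tested.

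With the NucleoSpin libraries alone (n = 2 per group), the spread of Mest was small and more comparisons passed. Mest rose by 1.70 (SE 0.10, adjusted p = 2.04e-09) in siCtrl, by 0.91 (SE 0.10, adjusted p = 3.46e-06) with siSMYD3#1 and by 1.66 (SE 0.10, adjusted p = 8.61e-09) with siSMYD3#2 on the log2 scale, where 33.2%, 34.8% and 26.2% of all 15222 genes passed. At 24 h it was lower than in siCtrl with siSMYD3#1 (-1.22, SE 0.10, adjusted p = 3.31e-07, 11.6% of all genes passing) and with siSMYD3#2 (-0.45, SE 0.10, adjusted p = 0.00481, 8.38% passing). It was lower with siSMYD3#1 than with siSMYD3#2 (-0.77, SE 0.10, adjusted p = 6.29e-05, 9.76% passing). Its rise was smaller with siSMYD3#1 than in siCtrl (-0.79, SE 0.14, adjusted p = 0.00571, 1.05% passing). Some 912 exon bases of Mest overlap Copg2 on the other strand. The strand setting of the counting is not given in the sources used here, and Copg2 rose by less in siCtrl (log2 fold change 0.54, SE 0.11, adjusted p = 0.000603).

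Peg3 (ENSMUSG00000002265, chr7:6703892-6730431, minus strand) rose with differentiation in siCtrl and with siSMYD3#2. In siCtrl it measured 289 CPM in the TRIzol library and 325 and 312 CPM in the NucleoSpin libraries at 0 h, and 858, 457 and 446 CPM at 24 h. All 24 h values were above all 0 h values, and the TRIzol library at 24 h was far above the others. The log2 fold change was 0.88 (SE 0.19, adjusted p = 0.00159). Its size turned on the TRIzol libraries: it was 0.68 (adjusted p = 0.017) without the one at 0 h and 0.61 (adjusted p = 0.0128) without the one at 24 h. With no TRIzol library, NucleoSpin libraries alone gave a smaller rise that passed (0.52, SE 0.08, adjusted p = 5.76e-05).

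With siSMYD3#2, Peg3 went from 275, 237 and 236 CPM to 616, 324 and 338 CPM, TRIzol first. The log2 fold change of 0.76 (SE 0.19, adjusted p = 0.00694) passed, and it did not with the study's replicate numbers as a block (0.76, adjusted p = 0.0103). It did not pass in 13 of the 18 fits that leave out 1 library. Among these 13, the log2 fold change was 0.49 (adjusted p = 0.0681) without the TRIzol library at 24 h and 0.71 to 0.86 in the others. NucleoSpin libraries alone gave 0.50 (SE 0.08, adjusted p = 0.000133). With siSMYD3#1, Peg3 went from 253, 294 and 281 CPM to 435, 375 and 401 CPM, without overlap, and the log2 fold change was 0.54 (SE 0.19, adjusted p = 0.0335). At 24 h the difference from siCtrl was -0.50 for siSMYD3#1 (SE 0.19, adjusted p = 0.113) and -0.46 for siSMYD3#2 (SE 0.19, adjusted p = 0.162). In the NucleoSpin libraries alone Peg3 was lower with siSMYD3#2 than in siCtrl at 0 h (-0.43, SE 0.08, adjusted p = 0.00706, 0.907% of all genes passing) and at 24 h (-0.44, SE 0.08, adjusted p = 0.00109).

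Grb10 (ENSMUSG00000020176, chr11:11930508-12038683, minus strand) rose in siCtrl, and its change with siSMYD3#1 did not pass the test. In siCtrl it measured 1.61, 1.44 and 1.65 CPM at 0 h and 4.7, 4.98 and 5.26 CPM at 24 h, with the TRIzol library first. The 3 libraries of a group lay close together and the groups were far apart. The log2 fold change was 1.67 (SE 0.27, adjusted p = 6.16e-05), and it passed in all 27 alternative settings, from 1.53 to 1.72. With siSMYD3#1 the values were 2.87, 2.44 and 2.22 CPM at 0 h and 1.31, 2.59 and 2.48 CPM at 24 h, which overlapped, for a log2 fold change of -0.26 (SE 0.28, adjusted p = 0.49). With siSMYD3#2 they were 2.14, 1.23 and 1.02 CPM at 0 h and 2.46, 2.77 and 2.58 CPM at 24 h, without overlap, and the log2 fold change of 0.87 (SE 0.28) did not pass (adjusted p = 0.0254).

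At 24 h, Grb10 was lower with siSMYD3#1 than in siCtrl, by a log2 fold change of -1.25 (SE 0.27, adjusted p = 0.00447). It was the only one of the 5 genes past the threshold between an siRNA against Smyd3 and siCtrl in the fit of all 18 libraries. The call was lost without either NucleoSpin siCtrl library at 24 h (-1.24 and -1.20, adjusted p = 0.0169 and 0.0209) or without the TRIzol siSMYD3#1 library at 24 h (-0.90, adjusted p = 0.0214). For siSMYD3#2 the log2 fold change was -0.93 (SE 0.27, adjusted p = 0.0349). In NucleoSpin libraries alone both passed, at -1.01 (SE 0.22, adjusted p = 0.00342) for siSMYD3#1 and -0.93 (SE 0.22, adjusted p = 0.00853) for siSMYD3#2. The rise itself differed from that of siCtrl by -1.93 for siSMYD3#1 (SE 0.38, adjusted p = 0.0222) and by -0.80 for siSMYD3#2 (SE 0.39, adjusted p = 0.506), and neither passed the threshold of 0.01. Between the 2 siRNAs at 24 h, the Grb10 difference was -0.32 (SE 0.28, adjusted p = 0.56).

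Plagl1 (ENSMUSG00000019817, chr10:13060504-13131694, plus strand) was near the limit of detection and no siRNA comparison passed. In siCtrl it measured 0.075, 1.06 and 1.25 CPM at 0 h and 0.109, 0.359 and 0.333 CPM at 24 h, TRIzol first, and the log2 fold change was -1.38 (SE 0.48, adjusted p = 0.0283). With siSMYD3#1 it measured 0.0691, 1.1 and 0.325 CPM at 0 h and 0.0937, 0.222 and 0.438 CPM at 24 h. With siSMYD3#2 it measured 0.146, 0.957 and 0.889 CPM at 0 h and 0.0805, 0.493 and 0.645 CPM at 24 h. The TRIzol library was the lowest in all 6 groups, with a term of -2.68 on the log2 scale (SE 0.36, adjusted p = 3.89e-06), a wider gap than any between treatments or times. Its counts in siRNA libraries reached 70 at most.

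Gnas (ENSMUSG00000027523, chr2:174284320-174346744, plus strand) passed in no comparison of the fit of all 18 libraries, and 1 library decided that. In siCtrl it measured 39.5, 31.7 and 34.1 CPM at 0 h and 49.5, 52.2 and 28.7 CPM at 24 h, TRIzol first, with overlap (log2 fold change 0.33, SE 0.17, adjusted p = 0.136). With siSMYD3#1 the values were 36.8, 40.5 and 38.3 CPM and then 37.4, 37.9 and 25.1 CPM. With siSMYD3#2 they were 42.4, 36.5 and 36.9 CPM and then 35.2, 30.5 and 25.5 CPM. At 24 h Gnas differed from siCtrl by -0.37 for siSMYD3#1 (SE 0.17, adjusted p = 0.192) and -0.52 for siSMYD3#2 (SE 0.17, adjusted p = 0.0728). Without the siCtrl library of 28.7 CPM at 24 h, Gnas passed over time in siCtrl (0.52, SE 0.15, adjusted p = 0.00922) and for siSMYD3#2 against siCtrl at 24 h (-0.71, SE 0.15, adjusted p = 0.00912), and the latter also passed without the filter on low counts (-0.50, SE 0.13, adjusted p = 0.00304). Some 2457 of its 11186 exon bases overlap Nespas or Gm20721 on the other strand, and the files give 1 count for all its promoters, so separate imprinted transcripts cannot be told apart.

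In the remaining siRNA comparisons none of the 5 genes passed. At 0 h their log2 fold changes lay between -0.62 (Plagl1) and 0.68 (Grb10) for siSMYD3#1 against siCtrl, where 1.43% of all genes passed, and between -0.33 (Mest) and 0.14 (Gnas) for siSMYD3#2, where 0.531% passed. The edgeR test gave Grb10 alone an unadjusted p under 0.05 in the first (adjusted p = 0.231) and 0 of the 5 in the second, and DESeq2 called 0 in both. Between the 2 siRNAs, 1.17% of all genes passed at 0 h and 3.36% at 24 h, and 0 of the 5 did at either time by edgeR or DESeq2, though Grb10 at 0 h (0.81, SE 0.28, adjusted p = 0.158) and Mest at 24 h (-0.86, SE 0.34, adjusted p = 0.148) were under an unadjusted p of 0.05 in the edgeR test.

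**Figure D3:**
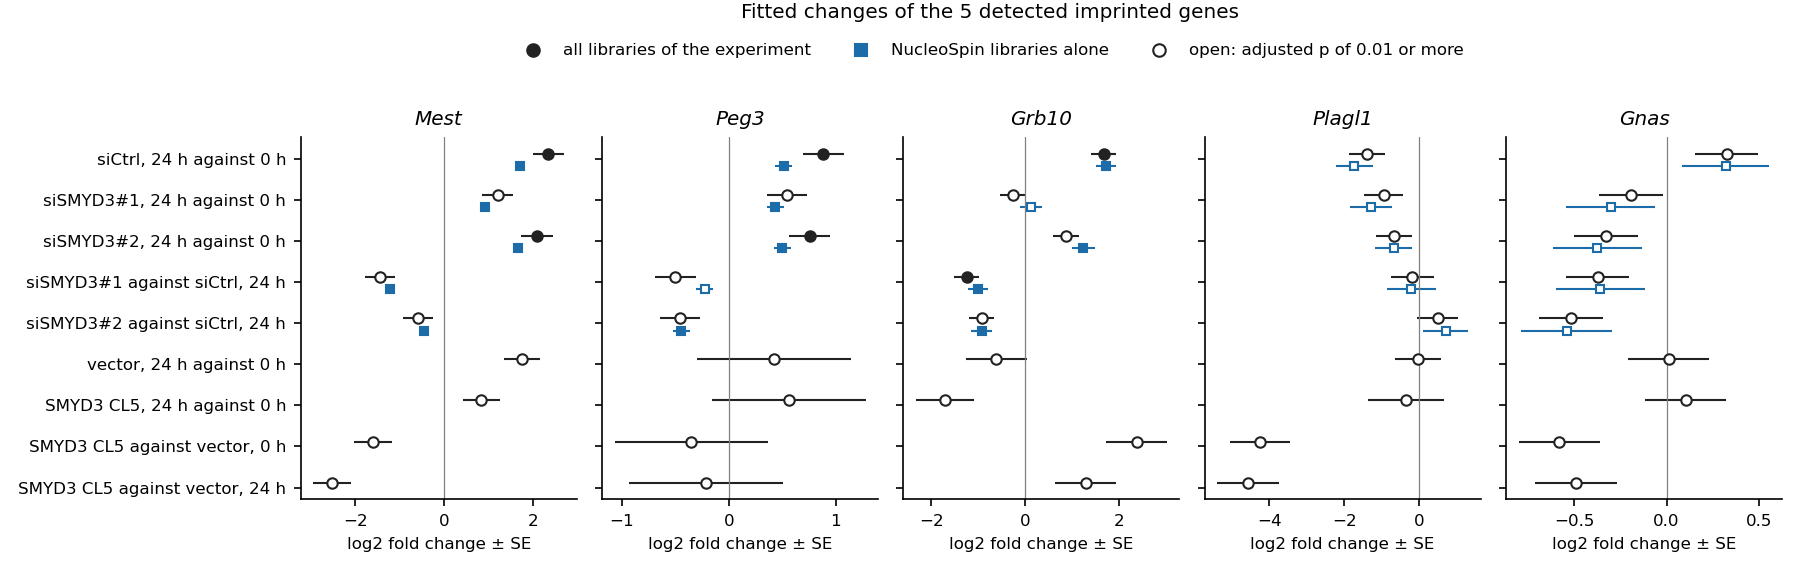
Fitted log2 fold change with its SE for Mest, Peg3, Grb10, Plagl1 and Gnas in the comparisons over time, between siRNAs and between lines, with circles for all libraries, squares for NucleoSpin libraries alone, and filled symbols for an adjusted p under 0.01. The filled circles are Mest, Peg3 and Grb10 over time in siCtrl, Mest and Peg3 over time with siSMYD3#2, and Grb10 at -1.25 for siSMYD3#1 against siCtrl at 24 h.

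In the SMYD3 CL5 clone, Plagl1 and Mest lay far below the vector cells at both times. Plagl1 had 47 and 63 counts in the vector libraries at 0 h and 54 and 113 at 24 h, and 5 and 1 counts and then 5 and 0 counts in SMYD3 CL5. Summed over the libraries, the level was 19.4 times higher in vector cells at 0 h (exact 95% interval 8.63 to 54.0) and 22.3 times at 24 h (9.35 to 69.5), where the intervals cover counting error only. These sums are raw counts over total counts, without TMM scaling, so the deeper library weighs more. In the fit over genes the log2 fold changes of -4.25 (SE 0.80, adjusted p = 0.0337) and -4.57 (SE 0.83, adjusted p = 0.0317) did not pass 0.01, with 2 libraries per group. Mest measured 4.3 and 3.4 CPM in vector cells and 1.65 and 0.986 CPM in SMYD3 CL5 at 0 h, and 13.2 and 13.4 CPM against 3.08 and 1.54 CPM at 24 h. Its summed level was 2.95 times higher in vector cells at 0 h (2.36 to 3.71) and 4.8 times at 24 h (4.16 to 5.56), with log2 fold changes in the fit of -1.61 (SE 0.42, adjusted p = 0.092) and -2.53 (SE 0.42, adjusted p = 0.0232). As folds, the fit gave 3.05 at 0 h and 5.76 at 24 h, the latter outside the interval of the summed counts. DESeq2 called Mest and Plagl1 at both times. The 6 TRIzol siRNA libraries had 0.0691 to 0.146 CPM of Plagl1, near the clone (0 to 0.12 CPM) and below the vector cells (1.11 to 1.63 CPM), and 5.05 to 6.08 CPM of Mest at 0 h, above both. In these comparisons 1.07% of all genes passed at 0 h and 0.964% at 24 h, and 0 of the 5 genes did by edgeR, although Mest, Plagl1, Grb10 and Gnas at 0 h and Mest and Plagl1 at 24 h were under an unadjusted p of 0.05.

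Of the other 3 genes, Peg3 and Grb10 differed more between the 2 libraries of the clone than Gnas did. Peg3 measured 552 and 112 CPM in SMYD3 CL5 at 0 h and 718 and 260 CPM at 24 h, against 439 and 371 CPM and then 540 and 573 CPM in vector cells, so the clone lay on both sides of the vector. The 0 h clone library with less Peg3 had more Myog, 78.9 CPM against 15.1 CPM in the other one. At 24 h the clone library with less Peg3 had less Myog, 75.4 CPM against 117 CPM. Grb10 measured 4.91 and 2.34 CPM in SMYD3 CL5 and 0.49 and 0.833 CPM in vector cells at 0 h, a log2 fold change of 2.37 (SE 0.65, adjusted p = 0.104), and 1.53 and 0.616 CPM against 0.287 and 0.591 CPM at 24 h (1.28, SE 0.64, adjusted p = 0.453). Gnas measured 24.2 and 18.5 CPM at 0 h and 24.4 and 21.4 CPM at 24 h in SMYD3 CL5, below all 4 vector libraries (29.9 to 32.7 CPM), with log2 fold changes of -0.58 (SE 0.22, adjusted p = 0.22) and -0.49 (SE 0.22, adjusted p = 0.384).

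Over time, Mest in vector cells went from 4.3 and 3.4 to 13.2 and 13.4 CPM without overlap, with a log2 fold change of 1.75 (SE 0.41) and an adjusted p of 0.412. Peg3 went from 439 and 371 to 540 and 573 CPM (0.42, SE 0.72, adjusted p = 0.972). Grb10 changed by -0.62 in vector cells (SE 0.65, adjusted p = 0.918) and -1.71 in SMYD3 CL5 (SE 0.62, adjusted p = 0.683). The edgeR test called 0 of 17835 genes, 0.0%, over time in vector cells, where 1256 genes were under an unadjusted p of 0.05 and DESeq2 called 119, Mest among them. It called 0.0% in SMYD3 CL5 (1137 genes under 0.05, 109 by DESeq2) and 0.0% for the difference of the time effects (312 genes under 0.05, 2 by DESeq2). These comparisons had 2 libraries per group and a common dispersion of 0.0903, against 0.0159 in the siRNA libraries, and the part of either in the low counts was not tested.

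The genes most like the members in pattern were taken over the 18 siRNA libraries as Pearson's r of log2 CPM after subtracting the mean of each extraction method. These lists were made after the values were seen, the points share libraries and depth, and no p is given. For Grb10 the most similar gene was Ddc (r = 0.958), the dopa decarboxylase gene that lies next to it (chr11:11814101-11898144, minus strand, 32.4 kb away). Ddc rose in siCtrl (log2 fold change 1.40, SE 0.19, adjusted p = 1.16e-05) and with siSMYD3#2 (0.99, SE 0.20, adjusted p = 0.0011), and was lower with siSMYD3#1 than in siCtrl at 24 h (-1.04, SE 0.19, adjusted p = 0.00126). It measured 2.59, 5.23 and 5.23 CPM in siCtrl at 0 h and 6.77, 13.0 and 14.5 CPM at 24 h, and 2.44, 8.07 and 6.87 CPM with siSMYD3#1 at 24 h. In SMYD3 CL5 at 0 h Ddc measured 3.4 and 4.24 CPM against 0.836 and 1.29 CPM in vector cells, the same order of groups as Grb10.

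For Peg3, the third most similar gene was its neighbour Zim1 (r = 0.971, chr7:6671269-6696450, minus strand, 7.4 kb away), a maternally expressed zinc finger gene, after Tcf12 (0.982) and Celf2 (0.978). Zim1 rose in siCtrl (1.48, SE 0.28, adjusted p = 0.000675), with siSMYD3#1 (1.07, SE 0.28, adjusted p = 0.00795) and with siSMYD3#2 (1.28, SE 0.28, adjusted p = 0.0034). At 0 h it measured 246 and 33.2 CPM in the 2 clone libraries, with the higher value in the library that had 552 CPM of Peg3. Mest was most like Lix1 (0.991), followed by Lrch1 (0.971), and Celf2 was also among its first 5 genes (0.968). Mest and Peg3 were alike (r = 0.933), Grb10 less so (0.642 with Mest, 0.666 with Peg3), and Gnas not (0.071 and 0.174). The most similar gene to Gnas was Gm10736, at a lower r of 0.773.

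**Figure D4:**
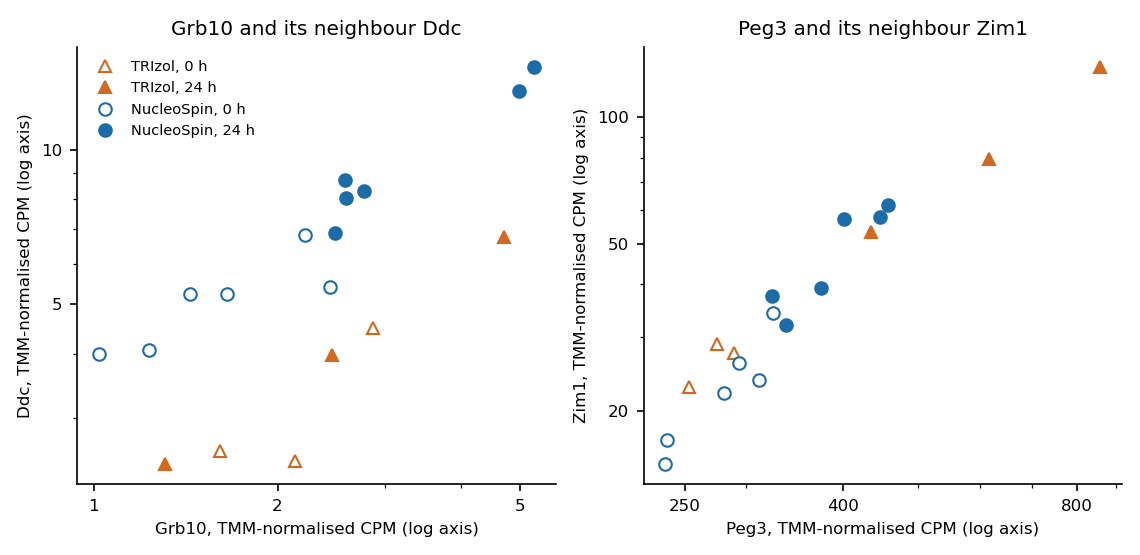
Grb10 against its neighbour Ddc, and Peg3 against its neighbour Zim1, in TMM-scaled CPM on log axes, 1 point per siRNA library, marked by extraction and, with open or filled points, by time. The points run along a rising band for Peg3, while for Grb10 the TRIzol points lie below NucleoSpin ones of a like Grb10 level, and the 3 points farthest right for Grb10 (4.7 to 5.26 CPM) are siCtrl at 24 h.

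Several other imprinted genes changed during differentiation. A list of 46 further imprinted genes held 34 with more than 3 counts in a library and 6 at 0 throughout (Magel2, Snurf, Zfp264, Rtl1, Dio3 and Klf14), and 28 were tested in the siRNA libraries. In siCtrl 11 rose and 2 fell over time (46.4%, beside 29.4% of all genes), and the median log2 fold change was 0.29, while that of all genes was 0.027. With siSMYD3#1 9 rose and 2 fell (39.3%, beside 25.4%), and with siSMYD3#2 10 rose and 2 fell (42.9%, beside 19%). Among genes listed as maternally expressed 8 of 11 rose and 0 fell in siCtrl (72.7% called). Among those listed as paternally expressed 3 of 16 rose and 2 fell (31.2% called). Of all genes 29.4% were called, with 14.6% rising and 14.8% falling. Whether each listed gene is imprinted in these cells, and which parental copy was transcribed, was not measured.

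Where the mean count per library was 100 or more, the largest rises in siCtrl were Dcn, a matrix proteoglycan (log2 fold change 4.83, SE 0.23, adjusted p = 7.8e-11), the growth-restraining RNA H19 (2.07, SE 0.28, adjusted p = 4.6e-05) and Zim1. With fewer counts, and named after their values were seen, the cell cycle inhibitor Cdkn1c (2.94, SE 0.49, adjusted p = 9.32e-05) rose by more than H19, and the antisense RNA Airn (1.52, SE 0.31, adjusted p = 0.00061) by more than Zim1. The falls were Peg10, a retrotransposon-derived gene (-0.96, SE 0.13, adjusted p = 1.51e-05), and Peg12 (-0.79, SE 0.22, adjusted p = 0.00691). With siSMYD3#1 the first rise and fall were again Dcn (4.50) and Peg10 (-1.02), and with siSMYD3#2 they were Dcn (4.52) and Peg12 (-1.02). At 24 h, 0 of the 28 were higher and 2 were lower than siCtrl for each siRNA (7.14%, beside 5.85% of all genes for siSMYD3#1 and 3.7% for siSMYD3#2): Gatm, a creatine synthesis enzyme (-1.43, SE 0.29, adjusted p = 0.00281), and Usp29, a gene beside Peg3 (-0.88, SE 0.20, adjusted p = 0.00611), with siSMYD3#1, and Dcn (-1.38, SE 0.19, adjusted p = 0.000236) and Gatm (-1.33, SE 0.29, adjusted p = 0.00762) with siSMYD3#2. Between the 2 siRNAs Peg10 alone passed, higher with siSMYD3#1 at 0 h (0.89, SE 0.13, adjusted p = 0.000754) and at 24 h (0.63, SE 0.13, adjusted p = 0.00627). This was 1 of 28 at each time (3.57%, beside 1.17% of all genes at 0 h and 3.36% at 24 h).

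In SMYD3 CL5 against vector cells at 24 h, 0 of 32 further imprinted genes tested passed (0.0%, beside 0.964% of all genes). At 0 h H19 alone passed (3.12%, beside 1.07% of all genes). It measured 1210 and 1220 CPM in the clone and 109 and 153 CPM in vector cells at 0 h (3.14, SE 0.32, adjusted p = 0.00384), and 807 and 694 CPM against 456 and 308 CPM at 24 h (0.94, SE 0.30, adjusted p = 0.185). Myog was also higher in the clone at 0 h, at 15.1 and 78.9 CPM against 0.26 and 0.483 CPM in vector cells. Its log2 fold change was 6.86 (SE 0.89, adjusted p = 0.00885, edgeR). Whether the stage of the cells at 0 h bears on the differences between the lines was not tested. In siCtrl, H19 measured 63.6 CPM in the TRIzol library and 403 and 483 CPM in the NucleoSpin libraries at 0 h. Ndn, a growth-suppressing gene chosen here after its values were seen, had 24 and 63 counts in vector cells at 0 h and 134 and 144 at 24 h, and 0 counts in all 4 clone libraries. With 3 counts over the 2 clone libraries as the limit, it was at least 30.7-fold higher in vector cells at 0 h and at least 61.8-fold at 24 h, and the fit over genes gave adjusted p = 0.0185 and 0.0126. In the siRNA libraries Ndn was present throughout, between 0.0805 and 0.759 CPM.

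**Figure D5:**
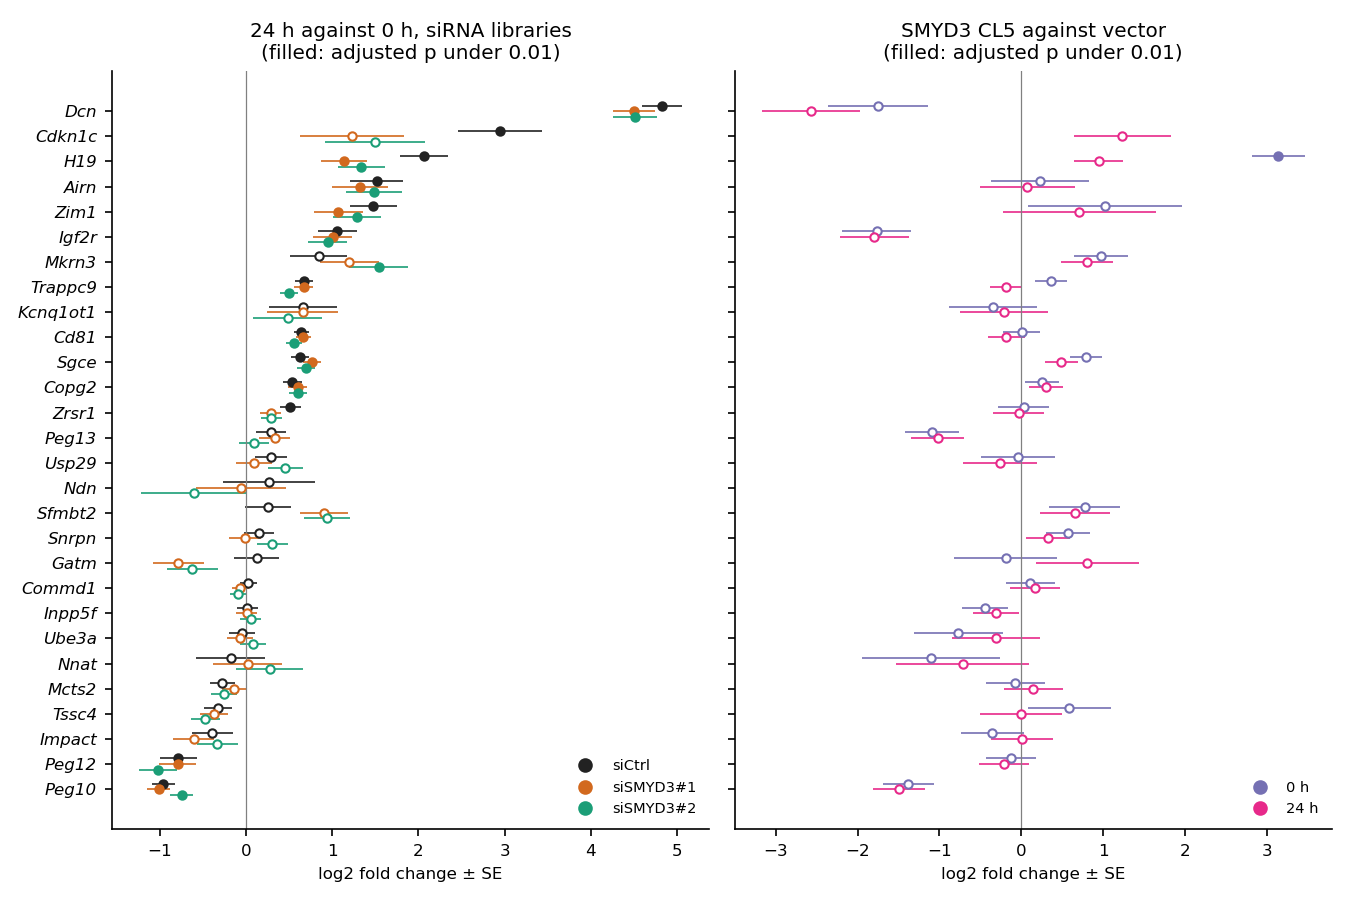
Fitted log2 fold change with its SE for the further imprinted genes tested in the siRNA libraries, over time for each siRNA (left) and for SMYD3 CL5 against vector cells at 0 h and 24 h (right), with filled points for an adjusted p under 0.01. Dcn, H19 and Zim1 lie to the right for all 3 siRNAs, Peg10 and Peg12 to the left, and H19 at 0 h is the filled point on the right panel; a gene with at most 3 counts in every library of either line at that time, such as Ndn, has no point there.

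Genes tied to the members by function were described from 3 lists. Of 8 genes of the network linked to Plagl1, 7 were tested in siRNA libraries, and in siCtrl 5 rose (Cdkn1c, Dcn, H19, Igf2r and Sgce) and 0 fell (71.4%, beside 29.4% of all genes), while Plagl1 itself measured at most 0.359 CPM at 24 h. With each siRNA against Smyd3, 4 of the 7 rose over time (57.1%, beside 25.4% for siSMYD3#1 and 19% for siSMYD3#2). The 5 that rose are also in the list of imprinted genes. Of 14 genes that set or keep imprints, 12 were tested, and in siCtrl 5 fell and 1 rose (6 of 12, beside 29.4% of all genes). Uhrf1, which brings the maintenance methyltransferase to replicated DNA, fell by 1.51 on the log2 scale (SE 0.14, adjusted p = 2.31e-07), that methyltransferase Dnmt1 by 0.80 (SE 0.11, adjusted p = 1.69e-05) and Trim28, a corepressor at imprinted regions, by 0.42 (SE 0.10, adjusted p = 0.00244), and Tet2, which oxidises methylcytosine, rose by 0.79 (SE 0.18, adjusted p = 0.00204). With siSMYD3#1 5 fell and 4 rose (75.0%, beside 25.4%), and with siSMYD3#2 3 fell and 2 rose (41.7%, beside 19%). Against siCtrl 0 of the 12 passed at either time by edgeR. Of all genes 1.43% and 0.531% passed at 0 h and 5.85% and 3.7% at 24 h, siSMYD3#1 first.

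Of 17 genes of insulin and Gs signalling, on which Grb10 and Gnas act, 16 were tested. In siCtrl 5 rose and 0 fell over time, a share of 31.2% near the 29.4% of all genes, led by the insulin receptor substrate Irs1 (1.23, SE 0.17, adjusted p = 2.64e-05) and the adenylyl cyclase Adcy9 (0.81, SE 0.13, adjusted p = 5.8e-05). With siSMYD3#1 5 rose and 1 fell (37.5%, beside 25.4%), and with siSMYD3#2 2 rose and 1 fell (18.8%, beside 19%). At 24 h Adcy9 was lower than siCtrl with siSMYD3#1 (-0.60, SE 0.13, adjusted p = 0.00441) and with siSMYD3#2 (-0.64, SE 0.13, adjusted p = 0.00402), and Prkacb, a catalytic subunit of protein kinase A, with siSMYD3#1 alone past the threshold (-0.65, SE 0.09, adjusted p = 0.0001). These were 2 of 16 with siSMYD3#1 (12.5%, beside 5.85% of all genes) and 1 of 16 with siSMYD3#2 (6.25%, beside 3.7%). Prkacb was already lower at 0 h with siSMYD3#1 (-0.74, SE 0.09, adjusted p = 0.000115), and lower than with siSMYD3#2 at both times (adjusted p = 0.000194 and 0.00349). In each of these comparisons it was 1 of 16 (6.25%), beside 1.43% of all genes in the first and 1.17% and 3.36% between the siRNAs.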

How the data were processed

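RNA-Seq was performed on 26 C2C12 libraries (TruSeq Stranded mRNA, polyA RNA). The authors deposited raw counts per Ensembl gene for each library, whole numbers without normalization. The submitters' processing notes name FastQC 0.11.5, HISAT2 2.1.0, featureCounts (Subread 1.6.3) and GRCm38. The strand setting, the treatment of multi-mapping reads and the annotation release are not given in the sources used here. Groups and extraction method came from the sample labels.

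Symbols, coordinates and exon lengths came from GENCODE M21, which held 54495 of the 55341 gene identifiers, and sequences from RefSeq (GRCm38.p6). In edgeR 4.0.16 (R 4.3.3), genes were kept by filterByExpr, libraries scaled by TMM, and robust quasi-likelihood tests run with Benjamini-Hochberg adjustment over all genes kept and a threshold of 0.01: 18 siRNA libraries as 6 groups with extraction as covariate (15820 genes), and 8 overexpression libraries as 4 groups (17835 genes). A standard error is the fold change over the square root of F. The tests were also run on simulated counts with known changes. These held no extraction effect, so they do not cover that term. A count of 3 was taken as the limit of detection. Depth ranged from 14315193 to 67853386 counts, and 0 pairs of libraries were identical.

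Alternatives were DESeq2 1.42.0, another scaling, no filter, no covariate, a replicate block, NucleoSpin libraries alone, all 26 libraries in 1 fit, a threshold of 0.05, leaving out each library, and, chosen after seeing the data, an extraction by time term. The replicate numbers of the block come from the study's library list. Same-numbered siRNA libraries deviated together (lowest correlation per pair of groups 0.413 to 0.594), but among NucleoSpin libraries alone only at 0.017 to 0.178, so the numbers mostly carry extraction.

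Named genes were the 9 members, kept genes of the Dlk1-Dio3 domain, and per comparison up to 3 rises and 3 falls of a list of imprinted genes with at least 100 counts on average. Genes past the threshold with fewer counts are named where 5 or fewer passed. The members and lists were chosen with earlier results of these data known.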

Additional observations from a re-analysis of the deposited data

Results flagged for a closer look

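The change of Mest over time differed between the TRIzol and the NucleoSpin libraries of the siRNA experiment. A term for the difference of the time effects, added after seeing the data, was 1.50 on the log2 scale (SE 0.15, adjusted p = 8.62e-07, edgeR), and 10.3% of all genes passed for that term. For Peg3 the same term was 0.66 (SE 0.15, adjusted p = 0.00345). In both genes the ratio of 24 h to 0 h was higher in the TRIzol library for each of the 3 siRNAs. Grb10 had a term of -0.80 (SE 0.27, adjusted p = 0.0387), Plagl1 of 1.23 (SE 0.81, adjusted p = 0.315) and Gnas of 0.11 (SE 0.21, adjusted p = 0.766). Each siRNA group holds 1 TRIzol library, and extraction and passage cannot be told apart.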

How the results depend on the processing

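Of 1835 values of a member in a comparison under an alternative, 1735 kept their direction and their side of the threshold, 73 newly passed, 27 no longer passed and 0 of those past the threshold changed direction. The counts of members past the threshold that moved by more than 1.5 times were as follows. At an adjusted p under 0.05 they were 2 for siSMYD3#1 over time, 2 for siSMYD3#1 and 1 for siSMYD3#2 against siCtrl at 24 h, 1 for the difference of the time effects of siSMYD3#1 and siCtrl, and 1 and 2 for SMYD3 CL5 against vector at 0 h and 24 h. DESeq2 gave 1, 2, 1, 1, 3 and 2 in the same order, and 1 for vector cells over time. Without the filter they were 2, 3, 3, 2, 3 and 2, with 1 for vector cells over time and 1 for the 2 siRNAs against each other at 24 h. Without the extraction covariate 1 passed for siCtrl over time, 0 for siSMYD3#2 over time and 0 for siSMYD3#1 against siCtrl at 24 h. NucleoSpin libraries alone gave 2 for siSMYD3#1 over time, 1 for siSMYD3#2 against siCtrl at 0 h, 2 and 3 for siSMYD3#1 and siSMYD3#2 against siCtrl at 24 h, 1 between the siRNAs at 24 h and 1 for the difference of time effects. All 26 libraries in 1 fit gave 1 for siSMYD3#2 over time, 0 for siSMYD3#1 against siCtrl at 24 h, and 2 for SMYD3 CL5 at each time. The extraction by time term, chosen after seeing the data, gave 2 for siSMYD3#1 over time, 2 for each siRNA against siCtrl at 24 h, 1 between the siRNAs at 24 h and 2 for the difference of time effects.

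With the replicate block, 1 passed for siSMYD3#2 over time, where Peg3 was lost, and 1 for SMYD3 CL5 against vector at 24 h, where Mest was gained (-2.61, adjusted p = 0.00955); the block changed no other call. In the overexpression experiment, with 2 pairs, same-numbered libraries correlated in their deviations at 0.48 between the 2 times of SMYD3 CL5, at 0.143 between the lines at 0 h, and at -0.008 and -0.098 in the other comparisons. The cause of these changes was not tested.

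Leaving out 1 library at a time gave 2 to 4 members for siCtrl over time, 0 to 1 for siSMYD3#1 and 1 to 2 for siSMYD3#2 over time, 0 to 2 for siSMYD3#1 and 0 to 1 for siSMYD3#2 against siCtrl at 24 h, 0 to 1 for the difference of the time effects of siSMYD3#1 and siCtrl, 0 to 1 and 0 to 2 for SMYD3 CL5 against vector at 0 h and 24 h, and 0 in the other comparisons. With SMYD3 CL5 left at 1 library, that library is assumed to vary like the other groups. The rise of Grb10 in siCtrl passed in 27 of 27 alternatives, that of Mest in siCtrl in 26 and with siSMYD3#2 in 26, that of Peg3 in siCtrl in 23 and with siSMYD3#2 in 11, and the lower Grb10 with siSMYD3#1 at 24 h in 22 of 27. Against vector cells at 24 h, Mest in SMYD3 CL5 passed in 7 of 14 alternatives and Plagl1 in 6 of 14. Depth limits Plagl1, at 0 to 113 counts a library, and leaves Dlk1, Meg3 and Rian undetected at up to 0.21 CPM in the shallowest library.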
